A study of Mus musculus with 2 samples.

Results

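Transcripts of the amino acid transporter families were described in single-cell RNA sequencing of thymic DN1 cells from mouse embryos. The members are the rows of the unique molecular identifier (UMI) table whose gene symbol starts with Slc1a, Slc3a, Slc6a, Slc7a, Slc36a, Slc38a or Slc43a followed by a digit. Of 22032 rows, 64 matched, and the 34 with at least 20 UMIs over all deposited barcodes were kept. Slc6a19, Slc7a14 and Slc7a4 lay just inside that limit with 25, 27 and 31 UMIs, and Slc7a3, Slc6a16 and Slc38a8 just outside it with 15, 10 and 7. Of the 30 rows left out, 17 had no UMI. The kept rows comprised 3 of 7 Slc1, 1 of 2 Slc3, 7 of 21 Slc6, 9 of 16 Slc7, 3 of 4 Slc36, 8 of 11 Slc38 and 3 of 3 Slc43 rows. Among them, Slc7a6os shares the prefix because it neighbours Slc7a6 and is not a transporter gene.

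Amino acid carriers set which amino acids a lymphocyte can take up. Several members of the Slc7 family are light chains that reach the cell surface bound to the heavy chain CD98, the product of Slc3a2, and exchange amino acids across the membrane. Carriers of the Slc38 family move neutral amino acids such as glutamine and alanine together with sodium, those of the Slc1 family carry neutral or acidic amino acids, and those of the Slc6 family carry neurotransmitters, taurine, creatine and amino acids. In activated T cells and innate lymphoid cells, uptake of leucine, glutamine and arginine feeds the growth kinase complex mTORC1.

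DN1 cells, the least mature CD4-negative and CD8-negative cells of the thymus, were sorted by flow cytometry from the embryonic thymus of mice given the strain label 5x polychromILC. The labels name 1 library of stage E15.5 (E15.5_DN1) and 1 of stage E19.5 (E19.5_DN1), both of this strain, with no other treatment or genotype given and no unmodified control, and they do not say how many embryos were pooled. Since the protocol speaks both of sorted cells and of their lysis to a nuclei extract, the material loaded cannot be named. The table holds its barcodes in 2 sets, suffix 1 and suffix 2, and no label ties a suffix to a stage. The stages were therefore not compared, the suffixes are given side by side, and with no replicates no test of a difference was made. Intervals in parentheses after a level, a share or a ratio are exact 95% intervals that cover counting error only.

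Barcodes were gated on raw UMIs, and the 4 sets are called gates here. The ILC2 gate holds barcodes with at least 1 UMI of both Icos and Rora, the NK/ILC1 gate those with Xcl1 and Nkg7, and the progenitor gate those with Spi1 and Bcl11a. The DN2/DN3 gate holds barcodes with Cd3g and Myb that passed none of the other pairs. The gates held 1511, 1349, 1083 and 320 barcodes, of which 309, 863, 376 and 115 carried suffix 1. A further 1149 kept barcodes were in no gate, 356 of them because they passed more than 1 of the first 3 pairs. The first 3 gates were compared in genes that their pairs did not use. Il1rl1, the receptor for interleukin 33, had 195.5 CPM, the gene's UMIs per 1000000 UMIs of the set, in the ILC2 gate and at most 4.03 CPM in the other gates. Klrd1, a natural killer cell receptor, had 672.7 CPM in the NK/ILC1 gate and at most 51.2 CPM elsewhere, and Mef2c, a progenitor transcription factor, had 127.8 CPM in the progenitor gate and at most 16.1 CPM elsewhere. The DN2/DN3 gate held Rag1, a recombination gene of early T cells, at 53.0 CPM and Ptcra at 30.2 CPM, but also Cd8b1 of later thymocytes at 106.8 CPM and Sox13 of gamma-delta T cells at 43.6 CPM. Markers of other cells were found in the ILC2 gate as well. The 5 gamma-delta T cell markers summed to 644 CPM there (913 CPM in suffix 1 and 552 CPM in suffix 2), against 276 CPM in the NK/ILC1, 34.4 CPM in the progenitor and 279 CPM in the DN2/DN3 gate. In suffix 1 of the ILC2 gate the 14 NK/ILC1 markers summed to 1182 CPM beside 1594 CPM for the 15 ILC2 markers, and in suffix 2 to 222 CPM beside 2641 CPM. Both lists include the pair of genes that their own gate was set on. In the progenitor, DN2/DN3, NK/ILC1 and ILC2 gates the 8 erythroid markers summed to 612, 306, 210 and 112 CPM. The 6 mast cell or basophil markers summed to 255, 325, 76.2 and 12.3 CPM in the same order. The 8 myeloid markers summed to 189, 29.1, 19.8 and 2.32 CPM. In the DN2/DN3 gate the NK/ILC1 markers summed to 1069 CPM in suffix 1 and 262 CPM in suffix 2. The part of these other markers in the values of the gates was not tested. The gates stand for their pairs of genes and not for pure cell types.

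After filters 5412 barcodes with 98990160 UMIs remained, 2137 of suffix 1 and 3275 of suffix 2. Median UMIs per barcode were 12336 in the ILC2, 11053 in the NK/ILC1, 32300 in the progenitor and 19245.5 in the DN2/DN3 gate. The suffixes shared 25 barcode sequences. In the NK/ILC1 gate 265 of the 863 suffix 1 barcodes held a UMI of the epithelial keratin genes Krt8 or Krt18, against 3 of 486 in suffix 2, and the members named as differing between suffixes of that gate are also given without them. Such barcodes occurred in every gate. In suffix 1 and suffix 2, 273 of 309 and 1169 of 1202 ILC2 gate barcodes held neither gene. The same held for 266 of 376 and 571 of 707 in the progenitor gate and 92 of 115 and 191 of 205 in the DN2/DN3 gate. Levels by suffix in these other gates are given with all their barcodes.

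The surface carriers with the most transcripts were shared by all 4 gates. Slc3a2, which encodes the CD98 heavy chain, had 147 CPM (142 to 153) in the ILC2 gate, 111 CPM (106 to 117) in the NK/ILC1 gate, 122 CPM (118 to 125) in the progenitor gate and 105 CPM (97.5 to 112) in the DN2/DN3 gate. By suffix it had 159 and 143 CPM, 117 and 102 CPM, 138 and 113 CPM, and 119 and 93.7 CPM in these gates. Slc3a2 was thus highest in the ILC2 gate and within 2-fold of that level in the others, and suffix 1 was above suffix 2 in every gate. Slc38a1, a sodium-coupled carrier of glutamine and other neutral amino acids, had 90.7, 69.7, 106 and 105 CPM in the same order, and its close relative Slc38a2 had 48.3, 47.3, 61.2 and 56.6 CPM. Slc1a5, the neutral amino acid exchanger ASCT2, had 39.5, 36.6, 36.1 and 36.9 CPM. Over all deposited barcodes Slc3a2 held 13222, Slc38a1 9745, Slc38a2 5785 and Slc1a5 3877 of the 62256 UMIs of the families. A 3′ UMI counts 1 captured transcript whatever its length, so the genes are compared as CPM and not per length.

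**Figure D1:**
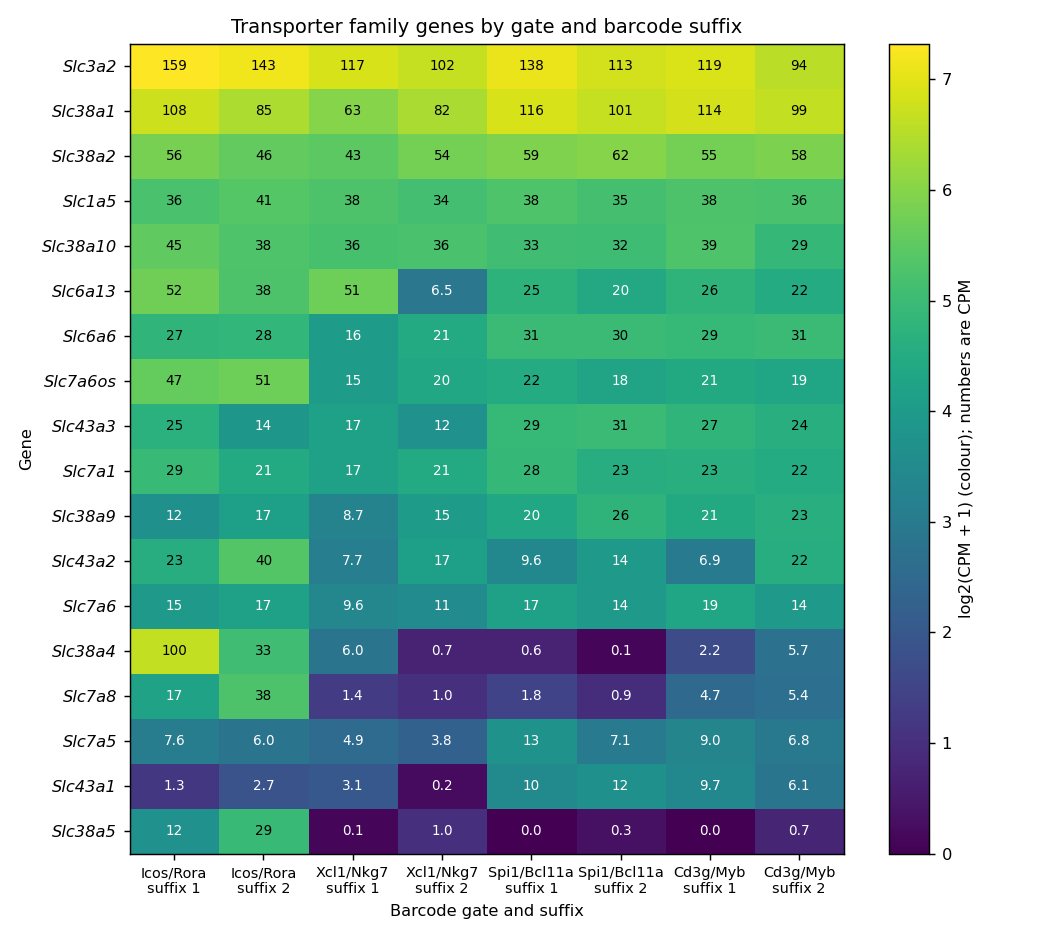
Levels of 18 members in the 4 gates, split by barcode suffix. Each row is a gene, each column a gate and suffix, the number is its level in CPM and the colour is log2 of CPM plus 1. Slc3a2, Slc38a1 and Slc38a2 are high in all columns, whereas Slc38a4, Slc38a5 and Slc7a8 are high in the ILC2 columns only and stay at or below 6.04 CPM in the others.

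Against the progenitor gate, the ILC2 gate had 11 of 33 members with a ratio at least 2-fold higher (33.3%), beside 15.47% of all 12572 rows compared, and 4 at least 2-fold lower (12.1%), beside 17.2% of all rows. The other 18 members lay within 2-fold, and Slc6a4 had too few UMIs for a ratio. The interval left out equality for 10 of the 11 higher and all 4 lower members. The median log2 ratio over the members was 0.28, and over all rows it was -0.10. The 3 largest ratios with over 100 UMIs belonged to Slc38a4, Slc38a5 and Slc7a8, whose sequences before the annotated start are shown because these genes were high in the same gate. They are given 5′ to 3′ on the gene's strand, 250 bases before the start and the first 10 after it, from the RefSeq annotation of GRCm38.p6. Capitals mark the E-box CACGTG, and none of the letters searched for (listed with the promoters of the other members) occur in the windows of Slc38a4 and Slc7a8 shown.
Slc38a4, chr15:97055947-97056206, minus strand: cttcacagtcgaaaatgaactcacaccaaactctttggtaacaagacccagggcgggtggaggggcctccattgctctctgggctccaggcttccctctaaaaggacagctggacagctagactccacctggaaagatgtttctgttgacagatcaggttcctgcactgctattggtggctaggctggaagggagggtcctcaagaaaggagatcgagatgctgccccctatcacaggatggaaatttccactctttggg
Slc38a5, chrX:8271131-8271390, plus strand: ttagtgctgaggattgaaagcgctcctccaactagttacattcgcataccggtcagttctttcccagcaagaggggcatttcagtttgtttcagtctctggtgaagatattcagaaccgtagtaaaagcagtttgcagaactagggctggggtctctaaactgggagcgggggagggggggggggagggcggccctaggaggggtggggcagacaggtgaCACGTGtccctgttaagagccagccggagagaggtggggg
Slc7a8, chr14:54781877-54782136, minus strand: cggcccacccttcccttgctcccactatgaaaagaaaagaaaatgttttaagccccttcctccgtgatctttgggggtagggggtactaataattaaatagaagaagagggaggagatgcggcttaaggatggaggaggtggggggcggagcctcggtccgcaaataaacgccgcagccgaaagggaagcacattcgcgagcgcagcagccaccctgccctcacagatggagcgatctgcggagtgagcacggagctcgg

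**Figure D2:**
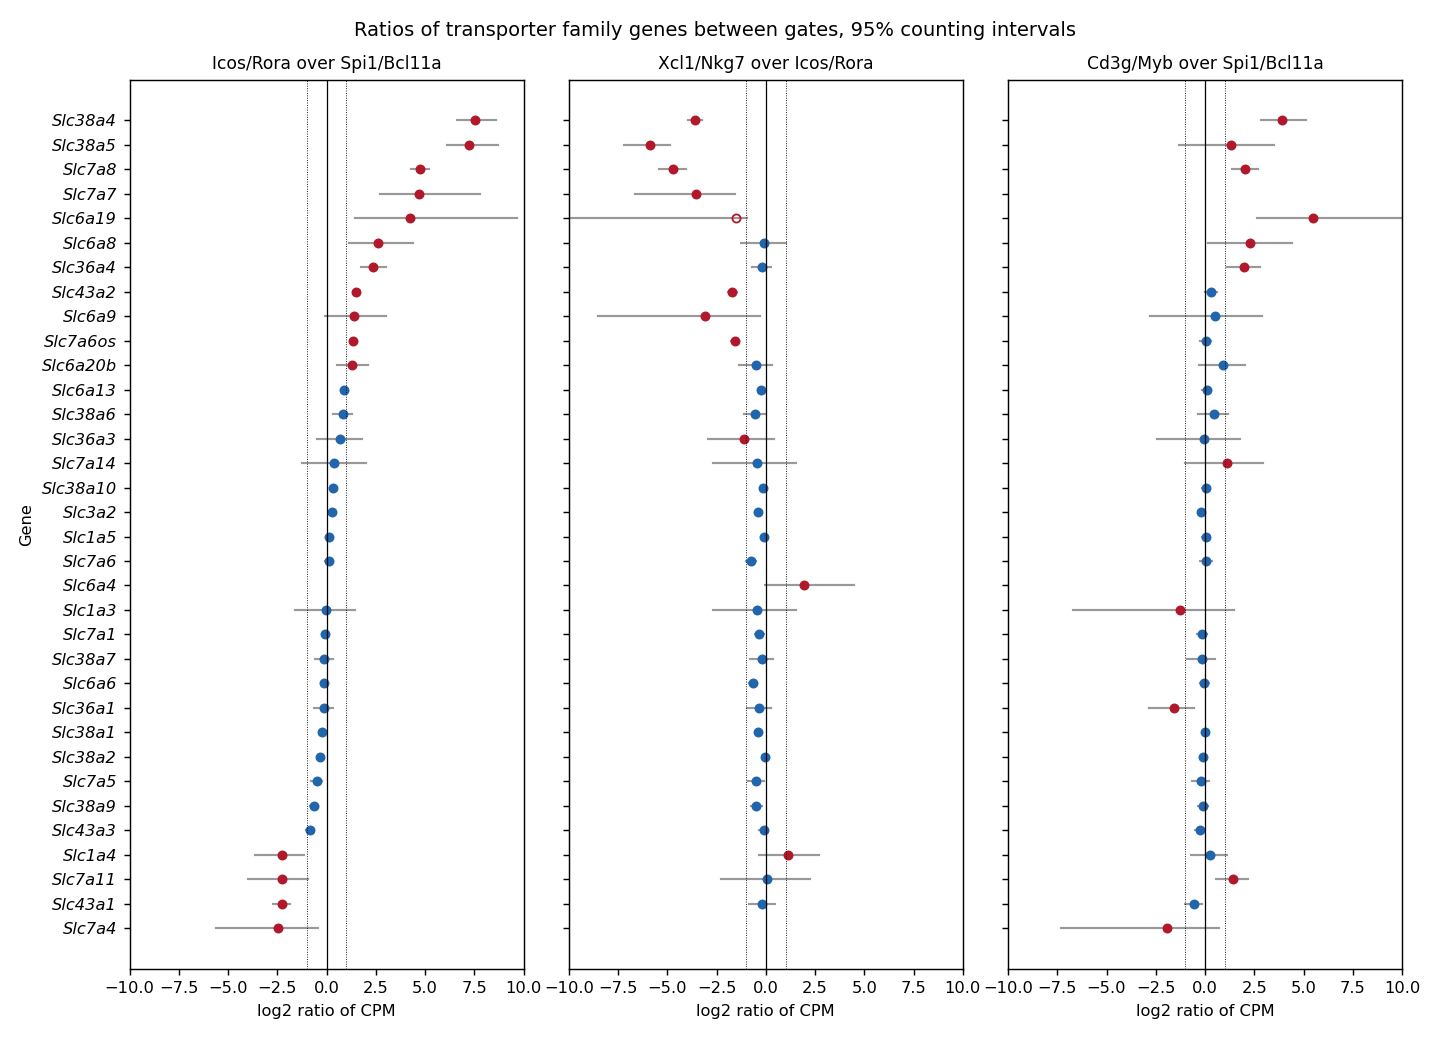
Log2 ratio of each member's level for the ILC2 over the progenitor gate, the NK/ILC1 over the ILC2 gate and the DN2/DN3 over the progenitor gate. Points are ratios, bars are exact 95% counting intervals (bars that pass the axis end there), red marks ratios of at least 2-fold in either direction, dotted lines stand at 2-fold and the open circle is a bound. Slc38a4 at 7.51, Slc38a5 at 7.24 and Slc7a8 at 4.72 stand far to the right in the first panel, and all 3 lie to the left in the second.

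Slc38a4 encodes SNAT4, a sodium-coupled carrier of small neutral amino acids best known from placenta and liver. The gene spans chr15:96994820-97055956 on the minus strand (GRCm38), on the chromosome that also holds Slc38a1 (chr15:96571418-96642913) and Slc38a2 (chr15:96687392-96699730). It had 49.9 CPM (47.0 to 53.0, from 1076 UMIs) in the ILC2 gate, 4.12 CPM (3.20 to 5.21) in the NK/ILC1 gate, 0.274 CPM (0.131 to 0.503, from 10 UMIs) in the progenitor gate and 4.16 CPM (2.83 to 5.91) in the DN2/DN3 gate. In the ILC2 gate its level was 100.1 CPM (91.9 to 109) for suffix 1 and 32.8 CPM (30.0 to 35.7) for suffix 2. By suffix it had 6.04 and 0.668 CPM in the NK/ILC1 gate, 0.618 and 0.0847 CPM in the progenitor gate, and 2.18 and 5.65 CPM in the DN2/DN3 gate. The ILC2 gate was above all others in both suffixes with no overlap of intervals, and suffix 1 stood above suffix 2 in 3 of the 4 gates. The ratio of the ILC2 to the progenitor gate was 183-fold, a log2 ratio of 7.51 (6.63 to 8.58), with 7.34 within suffix 1 and 8.60 within suffix 2. After every barcode was thinned to 6974 UMIs, 19.6% of ILC2 gate barcodes held a Slc38a4 UMI (17.6 to 21.8%), against 2.78%, 0.279% and 2.94% in the NK/ILC1, progenitor and DN2/DN3 gates. Without thinning the ILC2 share was 27.9%. Barcodes with at least 3 UMIs, 140 of the 1511 (9.27%), held 708 of the gate's 1076 Slc38a4 UMIs.

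Slc38a5 encodes SNAT5, which carries glutamine, histidine and asparagine with sodium in exchange for protons, and lies at chrX:8271133-8280179 on the plus strand. It had 24.9 CPM (22.8 to 27.1, from 536 UMIs) in the ILC2 gate, 0.418 CPM in the NK/ILC1 gate, 0.164 CPM in the progenitor gate and 0.403 CPM in the DN2/DN3 gate, from 7, 6 and 3 UMIs. Its ILC2 gate level was 12.01 CPM for suffix 1 and 29.3 CPM for suffix 2, the reverse of the order of Slc38a4. The ILC2 to progenitor ratio was 152-fold, a log2 ratio of 7.24 (6.11 to 8.70). Its transcripts sat in few barcodes. There, 62 barcodes (4.10%) with at least 3 UMIs held 462 of the 536 UMIs (86.2%), and the highest held 29. For Slc7a8 the same limit took 63 barcodes but 33.2% of the UMIs. After thinning, 6.49% of ILC2 gate barcodes (5.27 to 7.90%) held a Slc38a5 UMI, beside 0.169% in the NK/ILC1 and 0.0929% in the progenitor gate, at median depths before thinning of 12336, 11053 and 32300 UMIs.

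The Slc38 genes of the cell surface therefore had a different make-up in the ILC2 gate. Of the UMIs of Slc38a1, Slc38a2, Slc38a4 and Slc38a5 there, 42.4% were Slc38a1, 22.6% Slc38a2, 23.4% Slc38a4 and 11.6% Slc38a5. In the progenitor gate the shares were 63.3%, 36.4%, 0.163% and 0.0978%, in the NK/ILC1 gate 57.4%, 38.9%, 3.39% and 0.343%, and in the DN2/DN3 gate 63.2%, 34.0%, 2.50% and 0.242%. Both suffixes of the ILC2 gate held Slc38a4 and Slc38a5, in different proportions. In suffix 1 Slc38a4 made up 36.3% and Slc38a5 4.35%, and in suffix 2 they made up 17.0% and 15.2%.

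Slc7a8 encodes LAT2, a CD98 light chain that exchanges small and large neutral amino acids (chr14:54722209-54781946, minus strand). It had 32.5 CPM (30.2 to 35.0, from 701 UMIs) in the ILC2 gate, 1.25 CPM in the NK/ILC1 gate, 1.23 CPM in the progenitor gate and 5.10 CPM in the DN2/DN3 gate. By suffix it had 17.5 and 37.7 CPM in the ILC2 gate, 1.39 and 1.002 CPM in the NK/ILC1 gate, 1.78 and 0.932 CPM in the progenitor gate, and 4.68 and 5.42 CPM in the DN2/DN3 gate. Both suffixes of the ILC2 gate lay above every other gate, and the DN2/DN3 gate lay above the remaining gates. The ILC2 to progenitor ratio was 26.4-fold, a log2 ratio of 4.72 (4.29 to 5.19). After thinning 18.9% of ILC2 gate barcodes held a UMI (16.9 to 21.1%) against 0.743% of the progenitor and 1.10% of the NK/ILC1 gate.

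Of the other light chains the rare Slc7a7 was also highest in the ILC2 gate, whereas Slc7a5 and Slc7a6 lay there within 2-fold of the progenitor gate. Slc7a5, which encodes LAT1, the exchanger of leucine and other large neutral amino acids, had 6.41 CPM in the ILC2, 4.53 CPM in the NK/ILC1, 9.06 CPM in the progenitor and 7.79 CPM in the DN2/DN3 gate. Its ILC2 to progenitor log2 ratio was -0.50 (-0.80 to -0.21). Slc7a6, which encodes y+LAT2, an exchanger of arginine for neutral amino acids, had 16.7, 9.90, 15.4 and 16.1 CPM in the same order. Slc7a7, the related light chain y+LAT1, had 1.39 CPM in the ILC2 gate from 30 UMIs and at most 0.134 CPM elsewhere, a log2 ratio to the progenitor gate of 4.67 (2.69 to 7.78) that rests on 2 progenitor UMIs. Slc7a8 accounted for 56.9% of all light chain UMIs in the ILC2 gate (54.0 to 59.6%), followed by Slc7a6 with 29.1%, Slc7a5 with 11.2%, Slc7a7 with 2.43% and Slc7a11 with 0.406%. In the other gates Slc7a6 led, with 61.7% in the NK/ILC1, 57.4% in the progenitor and 50.2% in the DN2/DN3 gate, and Slc7a8 held 7.81%, 4.58% and 15.9%. Within the ILC2 gate Slc7a8 led in both suffixes, with 42.9% in suffix 1 and 60.0% in suffix 2. Per UMI of Slc3a2 there were 0.388 light chain UMIs in the ILC2, 0.144 in the NK/ILC1, 0.221 in the progenitor and 0.306 in the DN2/DN3 gate. By suffix that ratio was 0.257 and 0.438 in the ILC2 gate and 0.139 and 0.155 in the NK/ILC1 gate, so its place between gates changed with the suffix. In suffix 1 the DN2/DN3 gate was highest with 0.288.

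**Figure D3:**
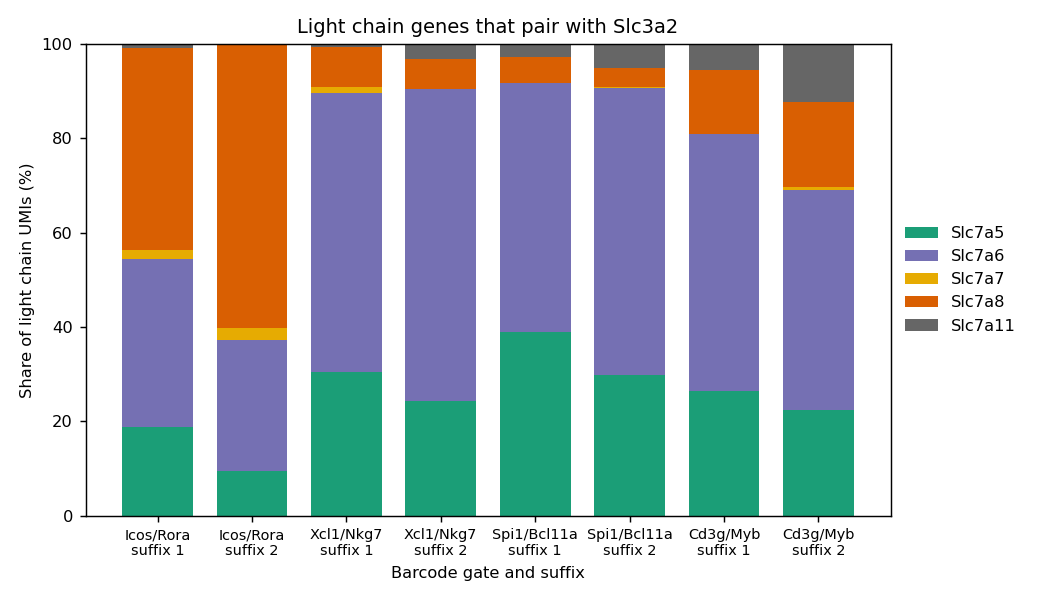
Make-up of the CD98 light chain transcripts by gate and barcode suffix. Each bar is 1 gate and suffix, and its segments are the percentages of UMIs from Slc7a5, Slc7a6, Slc7a7, Slc7a8 and Slc7a11. Slc7a8 is the largest segment in both ILC2 bars (42.9% and 60.0%) and a small one in the NK/ILC1 and progenitor bars.

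Slc7a11, the light chain xCT that takes up cystine for glutathione in exchange for glutamate, and Slc1a4, the exchanger ASCT1 for alanine, serine and cysteine, were low in the ILC2 gate. Slc7a11 had 0.232 CPM in the ILC2, 0.239 CPM in the NK/ILC1, 1.12 CPM in the progenitor and 2.95 CPM in the DN2/DN3 gate, from 5, 4, 41 and 22 UMIs. Slc1a4 had 0.325, 0.716, 1.56 and 1.88 CPM in the same order, from 7, 12, 57 and 14 UMIs. The ILC2 to progenitor log2 ratios were -2.27 (-3.97 to -0.93) for Slc7a11 and -2.26 (-3.64 to -1.13) for Slc1a4. Within suffix 1 they were -1.35 and -0.83, and both of those intervals spanned 0. Both genes had the amino acid response letters TGATGNAA near the start, which occur on either strand in 3.97% of all 32851 RefSeq promoter windows. Such letters are bound by Atf4, the factor induced when amino acids run short. They are marked in capitals in these windows, given as above, because the 2 genes shared both the letters and the direction of the ratio.
Slc7a11, chr3:50443604-50443863, minus strand: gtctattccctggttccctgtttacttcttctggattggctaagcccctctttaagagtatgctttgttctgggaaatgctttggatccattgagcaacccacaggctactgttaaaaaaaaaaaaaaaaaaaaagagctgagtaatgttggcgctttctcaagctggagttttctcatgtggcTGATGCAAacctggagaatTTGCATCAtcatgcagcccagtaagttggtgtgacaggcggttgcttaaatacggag
Slc1a4, chr11:20332704-20332963, minus strand: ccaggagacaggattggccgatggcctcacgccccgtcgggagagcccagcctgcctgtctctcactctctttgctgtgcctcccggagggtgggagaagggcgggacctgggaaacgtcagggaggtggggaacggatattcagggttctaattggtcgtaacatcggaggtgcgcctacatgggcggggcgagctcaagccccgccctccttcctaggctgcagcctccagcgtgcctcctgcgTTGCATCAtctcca
In Slc7a11 the matches begin 66 and 47 bases before the start and in Slc1a4 4 bases before it. Slc7a7, which was higher in the ILC2 gate, also held these letters, so the match did not go with 1 direction.

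The Slc43 family moves neutral amino acids without sodium and divided by gate. Slc43a2, which encodes LAT4, a carrier of leucine, isoleucine, methionine and phenylalanine (chr11:75531694-75577575, plus strand), had 35.5 CPM (33.0 to 38.1) in the ILC2 gate against 10.9, 12.6 and 15.7 CPM in the NK/ILC1, progenitor and DN2/DN3 gates. By suffix it had 22.6 and 39.9 CPM in the ILC2 gate, 7.71 and 16.7 CPM in the NK/ILC1 gate, 9.58 and 14.3 CPM in the progenitor gate, and 6.86 and 22.4 CPM in the DN2/DN3 gate. Suffix 2 was higher in all 4 gates, and within each suffix the ILC2 gate was highest, although suffix 1 of the ILC2 gate was level with suffix 2 of the DN2/DN3 gate. The ILC2 to progenitor log2 ratio was 1.49 (1.32 to 1.66), with 1.24 within suffix 1 and 1.48 within suffix 2.

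Slc43a1, which encodes the related leucine carrier LAT3 (chr2:84838850-84863594, plus strand), went the other way. It had 11.3 CPM (10.3 to 12.5) in the progenitor and 7.65 CPM (5.79 to 9.91) in the DN2/DN3 gate, against 2.32 CPM (1.72 to 3.06) in the ILC2 and 2.03 CPM in the NK/ILC1 gate. By suffix the progenitor gate had 10.4 and 11.8 CPM and the ILC2 gate 1.27 and 2.68 CPM, with no overlap of their intervals. The log2 ratio of the ILC2 to the progenitor gate was -2.29 (-2.74 to -1.86). Slc43a3, which lies beside Slc43a1 at chr2:84936579-84958509 and encodes a carrier of purine bases rather than amino acids, had 30.0 CPM in the progenitor, 24.8 CPM in the DN2/DN3, 16.5 CPM in the ILC2 and 15.3 CPM in the NK/ILC1 gate. Its ILC2 to progenitor log2 ratio was -0.87 (-1.04 to -0.69), made up of -0.21 (-0.51 to 0.08) within suffix 1 and -1.17 within suffix 2. Of the Slc43 UMIs, Slc43a2 made up 65.4% in the ILC2, 38.6% in the NK/ILC1, 23.4% in the progenitor and 32.6% in the DN2/DN3 gate, and Slc43a1 made up 4.28%, 7.17%, 20.99% and 15.9%.

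Among the Slc6 carriers, those of taurine and related solutes were the most abundant. Slc6a13, a carrier of gamma-aminobutyric acid and taurine (chr6:121300227-121337733, plus strand), had 41.2 CPM in the ILC2, 35.4 CPM in the NK/ILC1, 22.2 CPM in the progenitor and 23.5 CPM in the DN2/DN3 gate. For the NK/ILC1 gate the level was 51.4 CPM (47.2 to 55.9) with suffix 1 and 6.51 CPM (4.63 to 8.90) with suffix 2, and in the ILC2 gate 52.0 CPM (46.2 to 58.4) and 37.5 CPM (34.6 to 40.6). Suffix 2 of the NK/ILC1 gate was the lowest of the 8 gate and suffix sets, and the progenitor gate had 25.3 and 20.5 CPM. Without barcodes that held Krt8 or Krt18, the NK/ILC1 levels were 43.4 CPM (38.7 to 48.4) for suffix 1 and 6.56 CPM (4.66 to 8.96) for suffix 2, so the gap stood among the other 598 and 483 barcodes. Slc6a6, the taurine transporter, had 27.6, 17.5, 30.6 and 29.9 CPM in the ILC2, NK/ILC1, progenitor and DN2/DN3 gates and was lowest in the NK/ILC1 gate in both suffixes, at 15.6 and 21.03 CPM.

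The other Slc6 members were rare. Slc6a8, the creatine transporter, had 0.835, 0.776, 0.137 and 0.671 CPM in the 4 gates, and Slc6a20b, of the proline carriers, had 1.76, 1.25, 0.711 and 1.34 CPM. Slc6a9, the glycine transporter GLYT1, had 0.511 CPM in the ILC2 and at most 0.268 CPM in the other gates. Slc6a19, a neutral amino acid carrier known from gut and kidney, had 0.511 CPM in the ILC2 gate and 1.21 CPM in the DN2/DN3 gate, all 9 UMIs of the latter from suffix 2. It had 1 UMI in the progenitor gate and none in the NK/ILC1 gate. The ILC2 to progenitor log2 ratios were 2.61 (1.13 to 4.40) for Slc6a8, 1.31 (0.55 to 2.09) for Slc6a20b, 1.41 (-0.08 to 3.02) for Slc6a9 and 4.22 (1.44 to 9.65) for Slc6a19, whereas Slc6a13 had 0.89 (0.75 to 1.03) and Slc6a6 -0.15.

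Among carriers of arginine and of the lysosome, Slc7a1 and Slc38a7 lay within 2-fold in all 4 gates. Slc7a1, the arginine and lysine carrier CAT1, had 23.3, 18.6, 24.7 and 22.3 CPM in the ILC2, NK/ILC1, progenitor and DN2/DN3 gates. Slc38a9, the lysosomal protein that reports arginine to mTORC1, had 15.4, 11.1, 23.9 and 22.3 CPM, with an ILC2 to progenitor log2 ratio of -0.63 (-0.82 to -0.45) that was -0.78 within suffix 1 and -0.64 within suffix 2. Slc38a7, which releases glutamine from lysosomes, had 2.88, 2.51, 3.17 and 2.82 CPM, and Slc36a1, a proton-coupled carrier of small amino acids found on lysosomes, had 2.88, 2.27, 3.20 and 1.07 CPM. Slc36a4, a carrier of proline and tryptophan, had 4.22 CPM in the ILC2, 3.64 CPM in the NK/ILC1, 0.821 CPM in the progenitor and 3.22 CPM in the DN2/DN3 gate. It was thus lowest in the progenitor gate, with an ILC2 to progenitor log2 ratio of 2.36 (1.75 to 3.01) that was 2.69 within suffix 1 and 2.21 within suffix 2. Slc38a10 had 39.9, 35.9, 32.1 and 32.9 CPM and Slc38a6 3.67, 2.51, 2.08 and 2.82 CPM. The remaining members, Slc1a3, Slc7a4, Slc7a14, Slc36a3 and Slc6a4, had between 0 and 0.650 CPM in the gates, and Slc7a4 among them was lower in the ILC2 than in the progenitor gate (-2.49, -5.63 to -0.43).

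Slc7a6os, the row that is not a transporter gene, was highest in the ILC2 gate. It had 49.9 CPM in the ILC2 gate against 16.8, 19.48 and 19.9 CPM in the NK/ILC1, progenitor and DN2/DN3 gates, with 46.9 and 50.9 CPM in the suffixes of the ILC2 gate. The ILC2 gate was above the others in both suffixes, and the log2 ratio to the progenitor gate was 1.36 (1.219 to 1.495). Slc7a6 itself had a log2 ratio of 0.11. The genes lie tail to tail without overlap, Slc7a6 at chr8:106168857-106198706 on the plus strand and Slc7a6os at chr8:106200717-106210935 on the minus strand.

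The NK/ILC1 gate was compared with the ILC2 gate to set apart the innate lymphoid barcodes. Of 33 members, 9 were at least 2-fold lower (27.3%), beside 11.5% of all 12330 rows, and 2 were at least 2-fold higher, beside 9.01% of all rows. The interval left out equality for 8 of the 9 and for neither of the 2, Slc6a4 (1.95, -0.06 to 4.47) and Slc1a4 (1.14, -0.32 to 2.72). The median log2 ratio was -0.45 over the members and -0.11 over all rows. Slc38a5 was lower by a log2 ratio of -5.90 (-7.22 to -4.84), Slc7a8 by -4.70 (-5.40 to -4.08), Slc38a4 by -3.60 (-3.97 to -3.25), Slc43a2 by -1.70 (-1.94 to -1.46) and Slc7a6os by -1.57 (-1.76 to -1.38). Slc7a7, Slc6a9 and Slc36a3, all rare, had -3.54, -3.10 and -1.12, and Slc6a19, with no UMI in the NK/ILC1 gate, had at most -1.51. The first 5 genes were lower in the NK/ILC1 gate within each suffix as well as in both together. Nearer to equality were Slc3a2 at -0.40, Slc7a6 at -0.75, Slc6a6 at -0.65 and Slc7a5 at -0.50. For Slc38a1 the log2 ratio of -0.38 came from suffix 1 (-0.79) and was -0.04 in suffix 2. In suffix 1 of the NK/ILC1 gate Slc38a1 had 62.8 CPM with and 76.6 CPM without the barcodes that held Krt8 or Krt18.

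In the DN2/DN3 gate, 8 of 32 members were at least 2-fold higher than in the progenitor gate (25.0%), beside 8.09% of all 12257 rows, and 3 were at least 2-fold lower (9.38%), beside 6.85%. The interval left out equality for 6 of the 8 and 1 of the 3. The median log2 ratio was 0.03 over the members and 0.01 over all rows. Slc38a4 was 15.2-fold higher, a log2 ratio of 3.93 (2.86 to 5.12) from 31 and 10 UMIs, and the log2 ratio was 2.05 (1.39 to 2.71) for Slc7a8, 1.97 (1.13 to 2.80) for Slc36a4 and 1.40 (0.58 to 2.18) for Slc7a11. Slc38a4, Slc7a8, Slc36a4 and Slc7a11 had the same direction in both suffixes. The DN2/DN3 UMIs of Slc38a4 and Slc7a8 sat in few barcodes, and each gene had none in 301 of the 320. For Slc38a4, 3 barcodes with at least 3 UMIs held 11 of the 31 UMIs. For Slc7a8, 3 such barcodes held 16 of the 38 UMIs. Slc6a19 had a log2 ratio of 5.46 (2.61 to 10.92) from 9 UMIs against 1, and Slc6a8, Slc38a5 and Slc7a14, each with under 10 UMIs in the DN2/DN3 gate, had 2.29, 1.29 and 1.12. Slc7a4 and Slc1a3, with 1 UMI each in the DN2/DN3 gate, had -1.95 and -1.29. Slc36a1 was lower, at -1.58 (-2.82 to -0.55), and Slc43a1 at -0.57 (-0.99 to -0.16). The 15 ILC2 markers summed to 2374 CPM in the ILC2, 392 CPM in the DN2/DN3 and 172 CPM in the progenitor gate, with Il5 and Klrg1 at 0 in the DN2/DN3 gate. Icos and Rora are among them, so part of the sum in the ILC2 gate is set by the gating. Il2ra is also counted among the DN2/DN3 markers, so the sum in the DN2/DN3 gate is not of ILC2-like transcripts alone. The part of ILC2-like transcripts in the DN2/DN3 values of Slc38a4 and Slc7a8 was not tested.

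Within each gate the suffixes differed in some members, and what the suffixes stand for is not given by the labels. Within the ILC2 gate 7 of 31 members were at least 2-fold higher in suffix 2 (22.6%), beside 8.24% of 11753 rows, and 3 were at least 2-fold lower (9.68%), beside 7.35%. The interval left out equality for 3 of the 7 and 2 of the 3. In the NK/ILC1 gate 4 of 26 members were higher (15.4%), beside 15.4% of 11588 rows, and 4 were lower (15.4%), beside 9.36%. In the progenitor gate 2 of 31 were higher (6.45%), beside 5.3% of 12161 rows, and 2 lower (6.45%), beside 3.83%. In the DN2/DN3 gate 6 of 26 were higher (23.1%), beside 9.23% of 11144 rows, and 2 lower (7.69%), beside 5.22%. The shares in the progenitor gate were thus close to those of all rows.

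Slc43a2 was higher in suffix 2 in all 4 gates, with log2 ratios of 0.82 (0.54 to 1.11) in the ILC2, 1.11 (0.68 to 1.55) in the NK/ILC1, 0.58 (0.27 to 0.88) in the progenitor and 1.70 (1.02 to 2.44) in the DN2/DN3 gate. Slc38a9 was also higher in suffix 2 in each, with 11.6 and 16.7 CPM in the ILC2, 8.73 and 15.4 CPM in the NK/ILC1, 19.9 and 26.0 CPM in the progenitor and 20.9 and 23.3 CPM in the DN2/DN3 gate for suffix 1 and suffix 2. Slc3a2 was the reverse. Slc38a4 of the ILC2 gate was lower in suffix 2, at -1.61 (-1.79 to -1.44), and so was Slc43a3, at -0.86 (-1.17 to -0.54), while Slc38a5 was higher, at 1.29 (0.91 to 1.68), and Slc7a8 was higher, at 1.11 (0.80 to 1.44). In the NK/ILC1 gate Slc6a13 was lower in suffix 2, at -2.98 (-3.49 to -2.51), Slc38a4 at -3.18 (-5.09 to -1.75) and Slc43a1 at -4.20 (-9.54 to -1.62), and Slc38a9 was higher at 0.82 (0.38 to 1.25). The median over all rows was 0.20 there. Without barcodes that held Krt8 or Krt18, the NK/ILC1 levels for suffix 1 and suffix 2 were 4.61 and 0.672 CPM for Slc38a4, 2.03 and 0.168 CPM for Slc43a1, 7.32 and 16.8 CPM for Slc43a2, 9.89 and 15.46 CPM for Slc38a9 and 119 and 102 CPM for Slc3a2, with the same directions. In the progenitor gate Slc7a5 was lower in suffix 2, at -0.84 (-1.16 to -0.52), from 12.7 to 7.07 CPM.

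**Figure D4:**
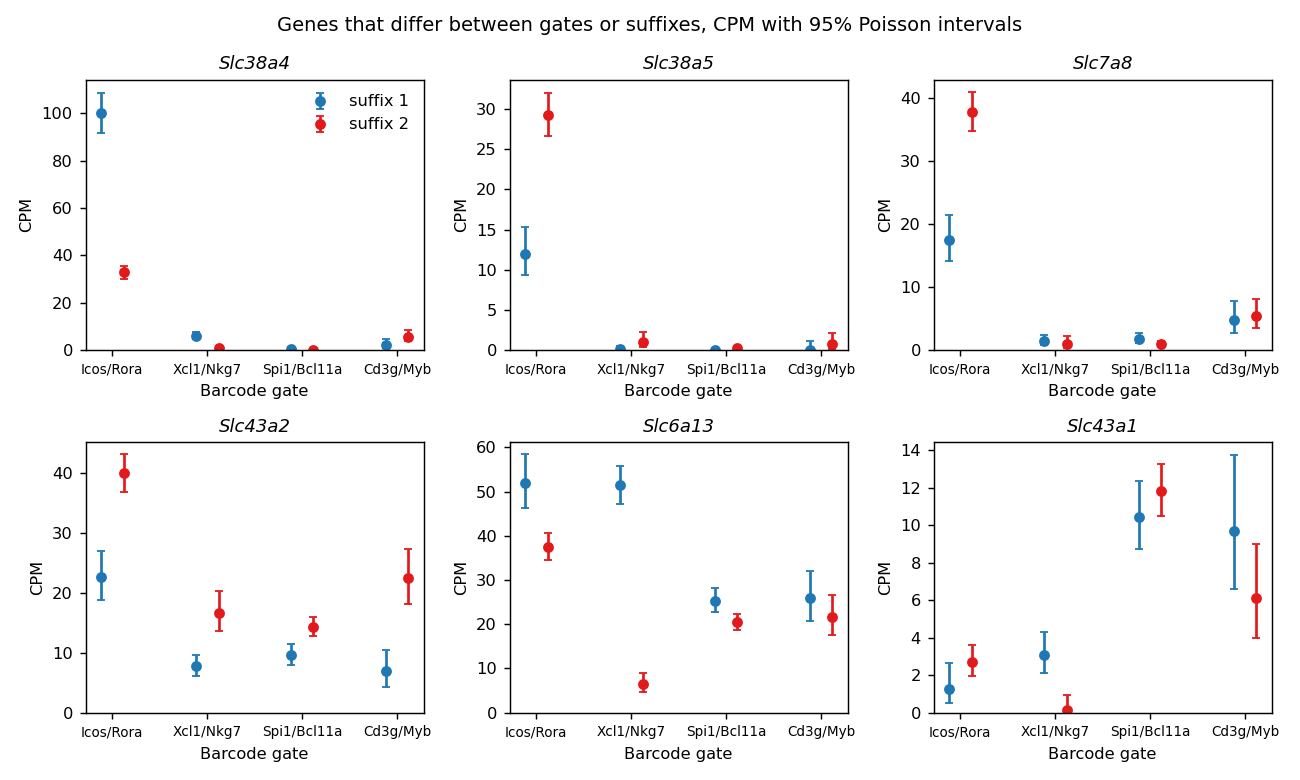
Levels of Slc38a4, Slc38a5, Slc7a8, Slc43a2, Slc6a13 and Slc43a1 in CPM for each gate, with suffix 1 in blue and suffix 2 in red. Points are CPM of summed UMIs and bars exact 95% Poisson intervals. Slc43a2 is higher in suffix 2 in all 4 gates, and Slc6a13 is lowest in suffix 2 of the NK/ILC1 gate, at 6.51 CPM.

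Barcodes of the ILC2 gate that held Slc38a5 were set against those without it. The 62 barcodes with at least 3 Slc38a5 UMIs, 57 of them of suffix 2, were compared with the 1390 that had none. Slc7a8 had 95.2 against 29.1 CPM, with a log2 ratio of 1.71 (1.34 to 2.06) that was 1.57 within suffix 2. Slc7a6os had 127.8 against 46.2 CPM (1.47, 1.15 to 1.77), Slc38a4 96.5 against 46.6 CPM (1.05, 0.69 to 1.39), Slc7a6 31.3 against 15.3 CPM (1.03, 0.37 to 1.63) and Slc3a2 245.3 against 142.1 CPM (0.79, 0.567 to 1.001). The heavy chain and 2 of its light chains were thus higher in the same barcodes as Slc38a5. The summed ILC2 markers were 3511 against 2307 CPM there, the summed NK/ILC1 markers 150.0 against 489.9 CPM and the summed cell cycle markers 1845 against 4346 CPM, and the part of these in the differences was not tested. Median UMIs were 10670 and 12597.5.

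Slc38a4 and Slc38a5 overlapped in part. After thinning, a Slc38a5 UMI was found in 12.1% of ILC2 gate barcodes with a Slc38a4 UMI (34 of 281, 8.53 to 16.5%) and in 5.13% of those without (59 of 1151, 3.92 to 6.56%). Within suffix 2 the shares were 14.7% and 6.13%, and within suffix 1 6.59% and 0.488%. The 140 barcodes with at least 3 Slc38a4 UMIs, 81 of suffix 1, had Slc38a5 at 52.7 CPM against 15.1 CPM in the 1089 with none, a log2 ratio of 1.81 from 153 and 215 UMIs. Slc43a2 was lower in them, at 22.1 against 38.2 CPM, with a log2 ratio of -0.79 (-1.19 to -0.41). Within suffixes that ratio was -0.31 and -0.47 with intervals that spanned 0, and Slc38a4 and Slc43a2 differ between suffixes in opposite directions. The Slc38a4-positive barcodes were deeper, with median UMIs of 19117.5 against 11565. The summed gamma-delta T cell markers were 922 against 588 CPM in them, the ILC2 markers 2057 against 2441 CPM, the NK/ILC1 markers 215 against 568 CPM and the cell cycle markers 5030 against 4090 CPM, and the part of these was not tested.

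Cycling barcodes, those with a UMI of both Mki67 and Top2a, were compared with those that had neither. Slc38a5 in the ILC2 gate (426 against 740 barcodes) was at 8.98 and 46.3 CPM, a log2 ratio of -2.37 (-2.73 to -2.01) that was -2.87 within suffix 1 and -2.14 within suffix 2. Slc7a8 had 18.8 against 45.8 CPM (-1.29, -1.56 to -1.02), with -1.33 and -1.08 within the suffixes. Both genes were thus lower in cycling barcodes of either suffix. Slc43a3, the purine base carrier, was higher, with 26.6 against 7.31 CPM (1.86, 1.45 to 2.29), 0.65 (-0.09 to 1.47) within suffix 1 and 2.11 within suffix 2. Slc38a4 had a log2 ratio of 0.39 over both suffixes but -0.30 and 0.02 within them, since suffix 1 held more of both. Cycling barcodes were deeper, with a median of 19796.5 UMIs in the ILC2 gate.

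Other members differed with cycling in the remaining gates, as did Slc43a3 in some of them. In the NK/ILC1 gate (330 against 554 barcodes) Slc7a1, the arginine carrier, had 28.1 against 15.0 CPM, with a log2 ratio of 0.90 (0.53 to 1.28), with 1.23 and 0.51 within the suffixes. Slc38a1 had 92.6 against 59.1 CPM (0.65, 0.45 to 0.84) and Slc6a13 24.3 against 41.3 CPM (-0.77, -1.08 to -0.46). Within suffix 2 the ratio of Slc6a13 was -0.46 with an interval that spanned 0. Slc43a3 had 18.0 against 10.99 CPM (0.72, 0.26 to 1.17), with 0.004 within suffix 1 and 2.21 within suffix 2. In the progenitor gate (342 against 388 barcodes) Slc7a5 had 11.5 against 6.12 CPM (0.91, 0.49 to 1.34), with 0.72 and 0.78 within the suffixes, and Slc1a4 had 2.13 against 0.659 CPM (1.69, 0.48 to 3.12). In the DN2/DN3 gate (123 against 90 barcodes) Slc6a13 had 16.8 against 31.2 CPM (-0.90, -1.44 to -0.36) and Slc43a3 30.2 against 19.53 CPM (0.63, 0.07 to 1.22). Slc43a2 was lower in the cycling barcodes of all 4 gates, with log2 ratios between -0.76 and -0.37 whose intervals lay below 0. Within single suffixes its ratio stayed negative in all 8 sets, and the interval left out 0 in 2 of them. Differences between gates in these ratios were not tested.

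**Figure D5:**
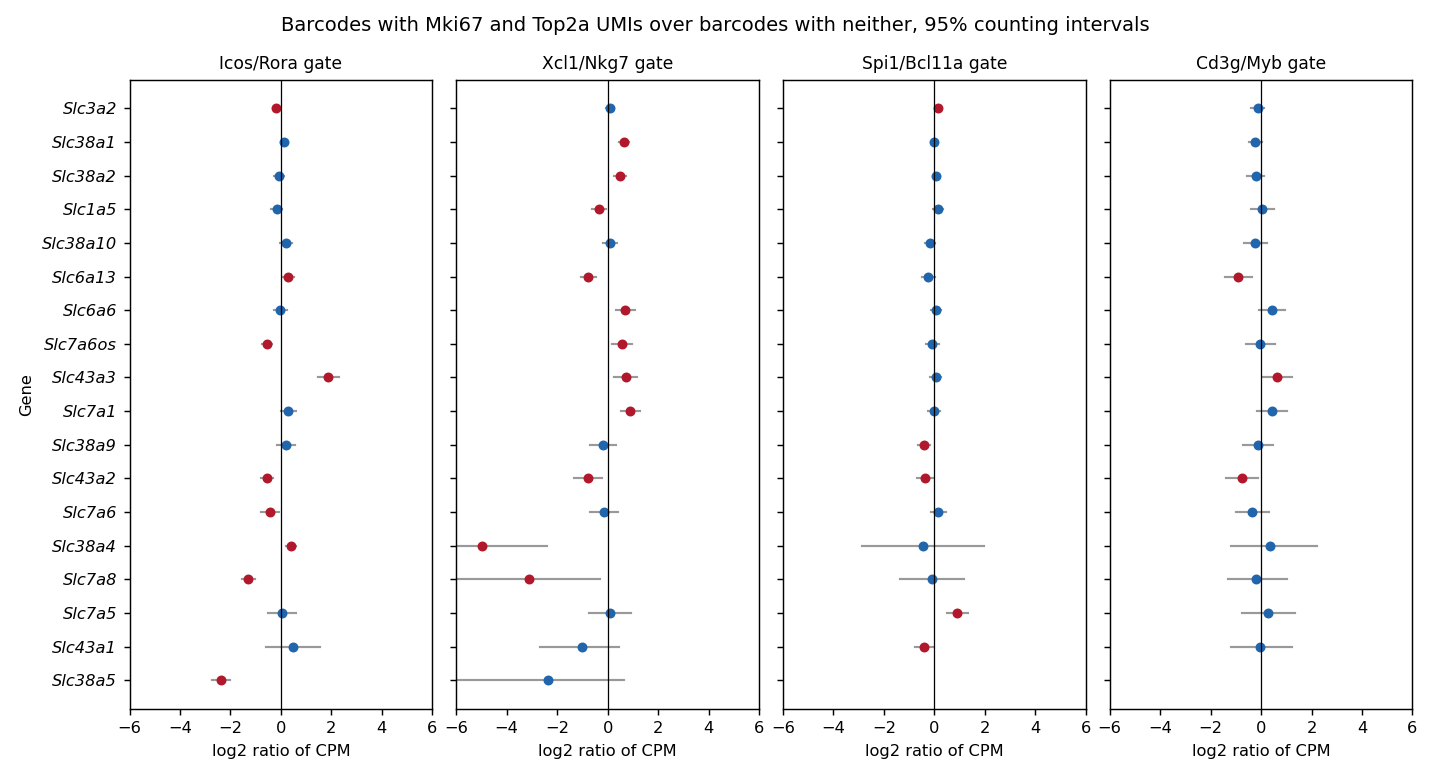
Log2 ratio of 18 members in barcodes with Mki67 and Top2a over barcodes with neither, as called after thinning, for each gate. Points are ratios and bars exact 95% intervals, red where the interval leaves out 0. Slc43a3 lies right of 0 and Slc38a5 and Slc7a8 left of it in the ILC2 panel, and Slc43a2 lies left of 0 in all 4 panels.

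Other genes of amino acid use were taken from 10 lists. With the ILC2 set against the progenitor gate, the glutathione list had 3 of 12 measured genes at least 2-fold higher and 2 lower, with a median log2 ratio of 0.10. Gclc, the enzyme that starts glutathione synthesis from cysteine and glutamate, had 333.4 CPM in the ILC2 and 26.4 CPM in the progenitor gate, a log2 ratio of 3.66 (3.56 to 3.76), while Gpx1, a glutathione peroxidase, had 253.6 against 1062.5 CPM (-2.07). The arginine and polyamine list had 3 of 13 higher and 3 lower with a median of -0.66, and Arg1, which splits arginine and is itself an ILC2 marker, had 124.6 against 0.137 CPM. Of the Gcn2 and Atf4 response list 3 of 22 were higher and 6 lower, with a median of -0.36. Within suffix 1 its median was 0.02 beside -0.05 for all rows, and within suffix 2 it was -0.18 beside -0.14. The pooled direction thus did not hold in suffix 1. Its most different genes were Ddit4, an inhibitor of mTORC1, at 95.8 against 13.2 CPM (2.86, 2.72 to 3.01) and Eif2ak4, which encodes the amino acid sensing kinase Gcn2, at 4.78 against 17.2 CPM (-1.85, -2.16 to -1.54). Atf4 itself had 88.0 against 96.6 CPM.

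The lists of amino acid breakdown and charging had medians below that of all rows in the ILC2 gate. Of 11 genes of branched-chain amino acid breakdown 1 was higher and 5 were lower, with a median of -0.97, of 15 glutamine genes none and 2 (-0.61), of 20 aminoacyl-tRNA synthetases none and 3 (-0.58), and of 14 serine and folate-cycle genes 2 and 4 (-0.41). The lower counts of the glutamine genes and the synthetases were no larger a share than that of all rows. Within suffix 1 the medians of these 4 lists were -0.69, -0.31, -0.43 and -0.29 beside -0.05 for all rows. Within suffix 2 the medians were -1.08, -0.68, -0.61 and -0.67 beside -0.14 for all rows. Iars, the isoleucyl-tRNA synthetase, had 16.5 against 38.1 CPM, and Gcsh of the glycine cleavage system 36.9 against 112.8 CPM. Of 28 genes of amino acid sensing by mTORC1, 1 was higher, Sesn3 with 57.0 against 10.5 CPM (2.44, 2.28 to 2.61), and none was lower, with a median of -0.18. Of 16 amino acid carriers outside these families 1 was higher and 4 were lower (-0.41), with Slc25a13, the mitochondrial aspartate and glutamate carrier, at 8.77 against 22.5 CPM. Of 11 genes of Myc and its partners 1 was higher and 3 were lower (-0.08), with Mycn at 16.3 against 78.8 CPM and Myc at 25.0 against 83.5 CPM. The same 15.47% and 17.2% of all rows and the median of -0.10 stand beside these counts and medians of both suffixes together.

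In the NK/ILC1 gate against the ILC2 gate the list medians lay between -0.35 for Myc and its partners and 0.22 for the serine and folate-cycle genes. Gclc was lower in the NK/ILC1 gate, at 28.4 CPM (-3.55, -3.69 to -3.42), and so was Ddit4, at 27.9 CPM (-1.78, -1.93 to -1.63). Slc16a10, a carrier of aromatic amino acids from another family, was higher, at 38.8 against 14.3 CPM (1.44, 1.24 to 1.64). In the DN2/DN3 gate against the progenitor gate all 10 medians lay between -0.19 and 0.02, and Ddit4 had 38.3 against 13.2 CPM (1.54, 1.32 to 1.75).

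RefSeq promoter windows, 250 bases before to 50 after a start, were found for 27 of the 34 members, 40 windows in all. Letters were searched on both strands, and a match describes the sequence only. The E-box CACGTG of Myc and its partners occurred in 5 of the 40 windows (Slc36a1, Slc38a5, Slc38a7, Slc43a1 and Slc7a14), beside 7.15% of all windows, with the match of Slc38a5 30 bases before its start. The amino acid response letters TGATGNAA occurred in 4 of the 40 (Slc7a11, Slc1a4 and 2 of Slc7a7), beside the 3.97% of all windows given above. These 2 windows of Slc7a7 overlap and share 1 match, so the 4 windows are not 4 separate sites. The GATA letters AGATAA occurred in 3 of the 40 (2 of Slc7a7 and the second of Slc38a4), beside 11.2% of all windows. The 2 Slc7a7 windows with GATA letters overlap as well and hold the same match. The letters AGGTCA, bound by ROR factors, occurred in 3 of the 40 (Slc36a1, Slc6a13 and Slc7a7), beside 16.3% of all windows. Of Slc38a4, Slc38a5 and Slc7a8, no 2 shared a match.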

How the data were processed

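DN1 cells sorted from embryonic mouse thymus were made into 10x Single Cell 3′ v3 libraries, per the labels' protocols. The authors deposited 1 table of raw UMI counts per gene and barcode. Cell Ranger 3.0.2 and STAR were used with GRCm38, per the submitters' processing notes, and settings beyond these are not known here. None of the 2 barcode suffixes is tied to a stage by a label, so all barcodes were treated as 1 pooled sample without replicates, and no test was run. T-cell receptor chain genes were not used here.

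Barcodes below 500 genes or above 10% mitochondrial UMIs (542 of 6057) and 103 doublets called by Scrublet per suffix (scanpy 1.11.5; 10 of suffix 1, 93 of suffix 2) were removed, which left 5412 barcodes of 713 to 113167 UMIs. UMIs were summed per gate and scaled to CPM, with exact Poisson intervals for levels, conditional exact intervals for log2 ratios and Clopper-Pearson intervals for shares, all at 95%. A count of 0 was set at 3 counts, and no ratio was made where both sides had at most 3 or where that bound pointed the wrong way. Members were counted as higher or lower from a 2-fold ratio and read against all rows with at least 20 UMIs. Shares and the calls of cycling barcodes used 4872 barcodes thinned to 6974 UMIs (the 10th percentile of depth), and 540 shallower barcodes were left out. On simulated data for the ILC2 over progenitor comparison, 95.6% of intervals over 11960 rows held the true value. Over the 200 rows that were changed, the median error was 0.065 on the log2 scale. The simulated UMIs were Poisson counts of the summed gates, which is what the intervals assume. They hold no spread between barcodes, so the simulation checks the calculation and not that spread.

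The members and lists were chosen with earlier results of these data known. Named members are the 12 with most UMIs in gated barcodes and, per gate comparison, those past 2-fold with at least 10 CPM in 1 of the gates. For the other comparisons they were drawn from the members of largest absolute log2 ratio with at least 10 CPM on 1 side. Whether an interval left out 0 was not part of the rule. Others are given for completeness of the families. Promoter windows and sequences are from RefSeq (GRCm38.p6), and gene positions from the GENCODE M21 annotation of GRCm38. Alternatives covered the gate threshold, overlapping gates, barcode filters, doublets, row minimum, scaling, thinning, epithelial transcripts and single suffixes. Values of the NK/ILC1 gate by suffix without Krt8 or Krt18 barcodes were added after seeing the data. Python 3.11.15, numpy 2.4.6, scipy 1.17.1 and matplotlib 3.10.9 were used.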

Additional observations from a re-analysis of the deposited data

Results flagged for a closer look

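Slc43a1, the carrier LAT3, went in opposite directions in the suffixes when the NK/ILC1 gate was set against the ILC2 gate. The log2 ratio was 1.27 within suffix 1 (33 against 7 UMIs) and -4.004 within suffix 2 (1 against 43 UMIs), and the difference was not tested. Slc38a2 did so as well, with -0.36 within suffix 1 and 0.25 within suffix 2, which was not tested either. In suffix 1 of the NK/ILC1 gate Slc38a2 had 43.4 CPM with and 51.0 CPM without the barcodes that held Krt8 or Krt18, and Slc43a1 had 3.06 and 2.03 CPM.

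Slc6a4, the serotonin transporter, had 4.49 CPM (3.53 to 5.63, from 75 UMIs) in barcodes outside the gates, 8.37-fold above the highest gate at 0.537 CPM. Of these UMIs 50 lay in 37 barcodes that held at least 3 of the mast cell or basophil genes Cpa3, Ms4a2, Gata2 and Fcer1a, where Slc6a4 had 174.7 CPM against 1.52 CPM in the other 1112 barcodes. The grouping by these genes was chosen after the value was seen.

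Among the 542 barcodes that failed the filters, 4 members were above every gate. Slc3a2 had 369.9 CPM (333.8 to 408.7), Slc38a2 141 CPM (119 to 166), Slc38a10 84.5 CPM (67.8 to 104) and Slc7a6 36.5 CPM (25.8 to 50.1), which is 2.51-, 2.31-, 2.12- and 2.19-fold the highest gate. The 8 erythroid markers summed to 73059 CPM in these barcodes against 353 CPM in kept barcodes, and their part in the 4 values was not tested.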

How the results depend on the processing

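Of 932 values of single members under other settings 820 moved by less than their counting interval, and 887 kept their direction. Of the 45 that did not, 37 belonged to ratios whose interval spanned 0 to begin with, and the other 8, called reversed here, to ratios whose interval left out 0. The median and counts of members stayed close in 244 of 270 cases and list medians in 410 of 420. Counts of members past 2-fold depended most on the row minimum. The share of all rows past 2-fold was worked out for the main setting only. The counts below therefore cannot be read against all rows. With at least 100 UMIs per row, 7 members were higher and 2 lower in the ILC2 over the progenitor gate (11 and 4 above), 1 and 5 in the NK/ILC1 over the ILC2 gate (2 and 9) and 4 and 1 in the DN2/DN3 over the progenitor gate (8 and 3), because fewer rows were compared. The suffix counts under that minimum were 4 higher in the ILC2 gate (7), 0 higher and 1 lower in the progenitor gate (2 and 2) and 1 lower in the DN2/DN3 gate (2). For the NK/ILC1 over the ILC2 gate, 1 member was higher with gates of 2 UMIs, with overlapping gates kept or with suffix 2 alone. Suffix counts of higher members with gates of 2 UMIs were 2 in the ILC2 and 2 in the NK/ILC1 gate (4). In the ILC2 gate 4 were higher without barcodes of more than 1 pair, under the stricter barcode filter or without Krt8 or Krt18 barcodes. In the progenitor gate 1 was higher without barcodes of more than 1 pair, and 1 was lower without Krt8 or Krt18 barcodes or after thinning. Thinning gave 4 higher and 1 lower in the DN2/DN3 over the progenitor gate and 1 lower between suffixes of the DN2/DN3 gate. With suffix 1 alone, 2 were lower in the ILC2 and 1 in the DN2/DN3 over the progenitor gate. The reversed values were Slc1a5 in ILC2 over progenitor (-0.015 with gates of 2 UMIs, -0.094 in suffix 1), Slc38a10 after thinning (-0.021 there, 0.040 in NK/ILC1 over ILC2), Slc7a1 in NK/ILC1 over ILC2 in suffix 2 (0.017), Slc43a2 in DN2/DN3 over progenitor in suffix 1 (-0.48), Slc6a6 with cycling in the NK/ILC1 gate in suffix 2 (-0.013) and Slc38a1 with Slc38a4 in suffix 2 (-0.0076). Apart from the row minimum and the single suffixes, which compare fewer rows or barcodes, the cause was not tested. Centring on the median of all rows shifts ratios by 0.10 in ILC2 over progenitor and 0.11 in NK/ILC1 over ILC2, and members with few UMIs are limited by depth. No paired analysis was possible because the labels give no replicate numbers and there is 1 library per stage.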
